A study of Rattus norvegicus with 12 samples.

Results

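Damage to the renal tubule leaves a recognisable mark in kidney RNA. Injured epithelial cells put new receptors such as Havcr1 on their surface, release glycoproteins such as osteopontin and clusterin, and take on cytoskeletal and matrix-binding genes that healthy tubules keep low, while they lose transporters of the mature proximal tubule. Several products of these genes are read in urine as signs of kidney injury in rats and in people. A panel of 10 such genes was followed here: the receptors Havcr1 and Cd44, the secreted glycoproteins Spp1, Clu and Cp, the intracellular proteins Anxa1, Vim and Krt19, and the small secreted proteins Tff3 and Lcn2. They were chosen by symbol, with earlier results of these data known and with no filter on signal. The array annotation gave 14 probe sets for them out of 31042 tested, with 2 probe sets for Clu, 2 for Cd44 and 3 for Cp.

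The RNA came from whole kidney tissue of 12 male Zucker rats, each hybridized to an array of its own, in 4 groups of 3. Obese rats on rosiglitazone, obese rats on control diet, lean rats on rosiglitazone and lean rats on control diet were compared after 12 weeks. Control rats ate ground chow, and the others received 3 mg/kg body weight of rosiglitazone in it. Obese Zucker rats lack a working leptin receptor in every tissue, the labels call the rats a diabetes model, and rosiglitazone activates the nuclear receptor PPARgamma. The age of the rats is not given in the sources used here. Values are MAS5 signals on a linear scale, and the number of arrays limits their precision. In whole tissue, fewer cells of a type and less RNA per cell cannot be told apart.

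The arrays had trimmed means of 500.12 to 500.15 and Gapdh 3' to 5' ratios of 1.07 to 1.32. The spike-in transcript cre split them into 5 arrays with signals of 19916 to 21951 and 7 arrays with 14412 to 16658. The lower class held 3 obese rosiglitazone, 2 obese control, 1 lean rosiglitazone and 1 lean control array. With this class as a term, no call of the panel changed direction, and calls it ended or gave are given with their genes. A probe set is called dim in a group whose mean signal did not exceed 123.7, the highest signal of 27 bacterial control probe sets. Kidney identity was plain in all groups, with mean signals of 9036 in obese and 11706 in lean rats for the proximal tubule receptor gene Lrp2.

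Obese kidneys differed from lean kidneys in most of the panel, and in both directions. Over both diets, 6 of the 10 genes were higher in obese rats (Havcr1, Spp1, Clu, Cd44, Anxa1 and Cp), 3 were lower (Krt19, Tff3 and Lcn2), and Vim did not pass the test. Over all probe sets of the array, 8.15% passed the same test, 4.28% higher and 3.87% lower in obese rats. Such values over all probe sets are a background and no test of the panel, which was chosen with earlier results known. A gene was called at a limma adjusted p under 0.05, each gene read by its brightest probe set. The share over all probe sets includes many dim ones. Of 18625 probe sets left by a filter on low mean signal, 1432 were called higher and 1233 lower. The median log2 change of the 10 genes was 0.48, against 0 for all probe sets, of which the middle 90% lay between -0.52 and 0.53. For 7 genes no obese rat overlapped any lean rat, Havcr1, Spp1, Clu, Cd44 and Cp being higher and Krt19 and Tff3 lower. Such a complete separation of 6 obese from 6 lean rats was found in 5.02% of all probe sets. The other probe sets of Clu, Cd44 and Cp did not show it.

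**Figure D1:**
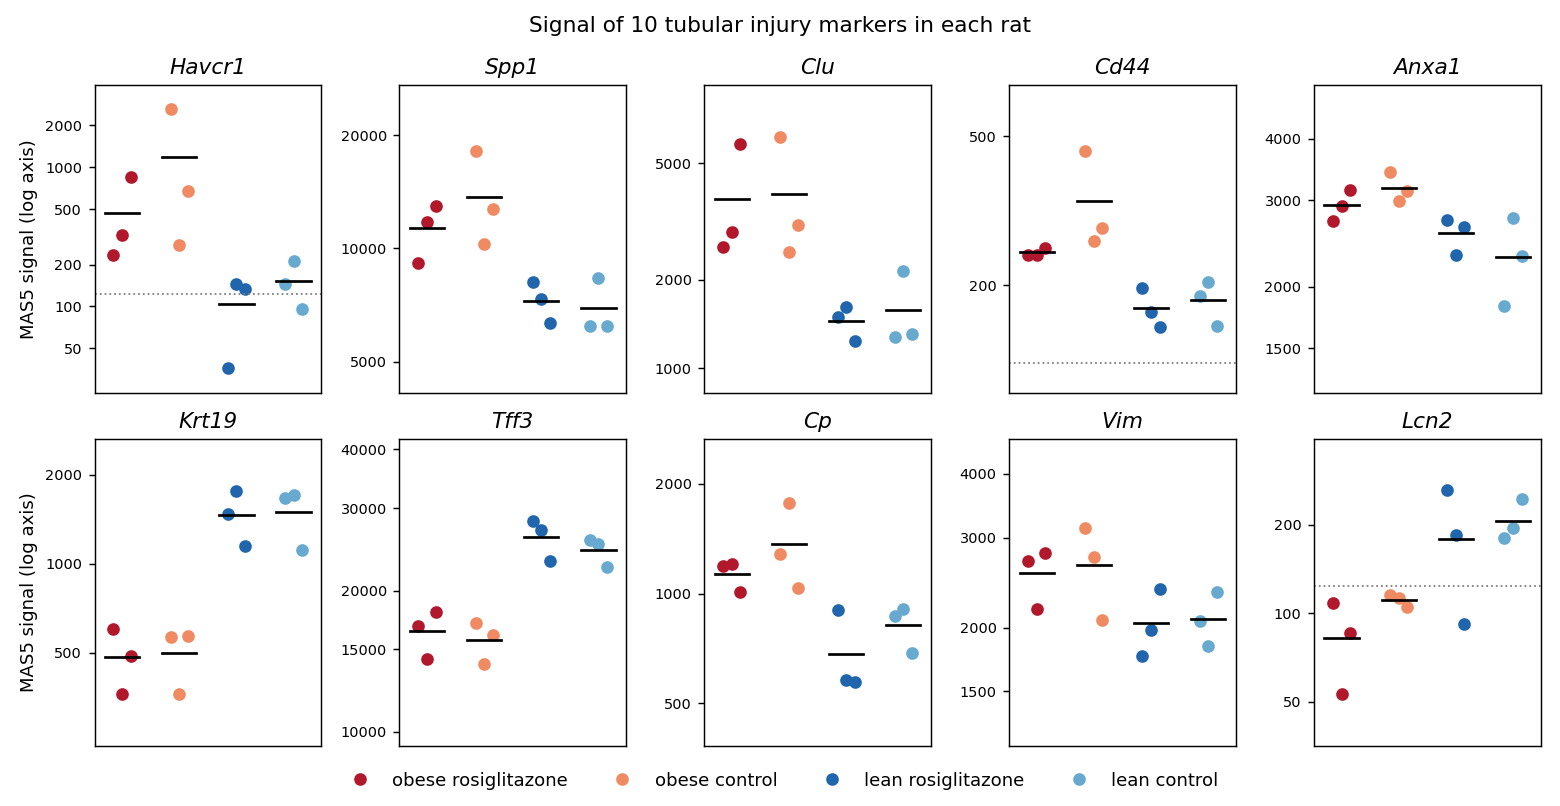
MAS5 signal (log axes, scaled per gene) of the brightest probe set of each of the 10 genes in every rat, by group. Points are rats in the order 1, 2 and 3, black bars are arithmetic means of 3 rats, and the dotted line, where it falls in range, is the dim limit of 123.7. Krt19 and Tff3 stand lower in all 6 obese rats, Havcr1, Spp1, Clu, Cd44 and Cp stand higher, and Lcn2 lies under the dim limit in all 6 obese rats.

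The smaller comparisons passed fewer genes. On control diet 3 of the 10 genes were called, Spp1 higher and Krt19 and Tff3 lower, against 2.23% of all probe sets, 0.966% higher and 1.27% lower. On rosiglitazone 2 were called, Krt19 and Tff3, both lower, against 2.34% of all probe sets, 1.07% higher and 1.26% lower. The 3 obese rats did not overlap the 3 lean rats in 9 of 10 genes on control diet, against 21.7% of all probe sets, and in 7 of 10 on rosiglitazone, against 19.4%. All 10 genes had the same sign on both diets. Within the 7 arrays of the lower spike-in class, 3 genes passed over both diets (Spp1, Krt19 and Tff3), and all 14 probe sets kept their sign. The log2 changes that did not pass there were 1.75 for Havcr1 (adjusted p = 0.129), 1.28 for Clu (0.0747), 0.68 for Cd44 (0.0656), 0.97 for Cp (0.0604), 0.27 for Anxa1 (0.137) and -0.62 for Lcn2 (0.275).

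**Figure D2:**
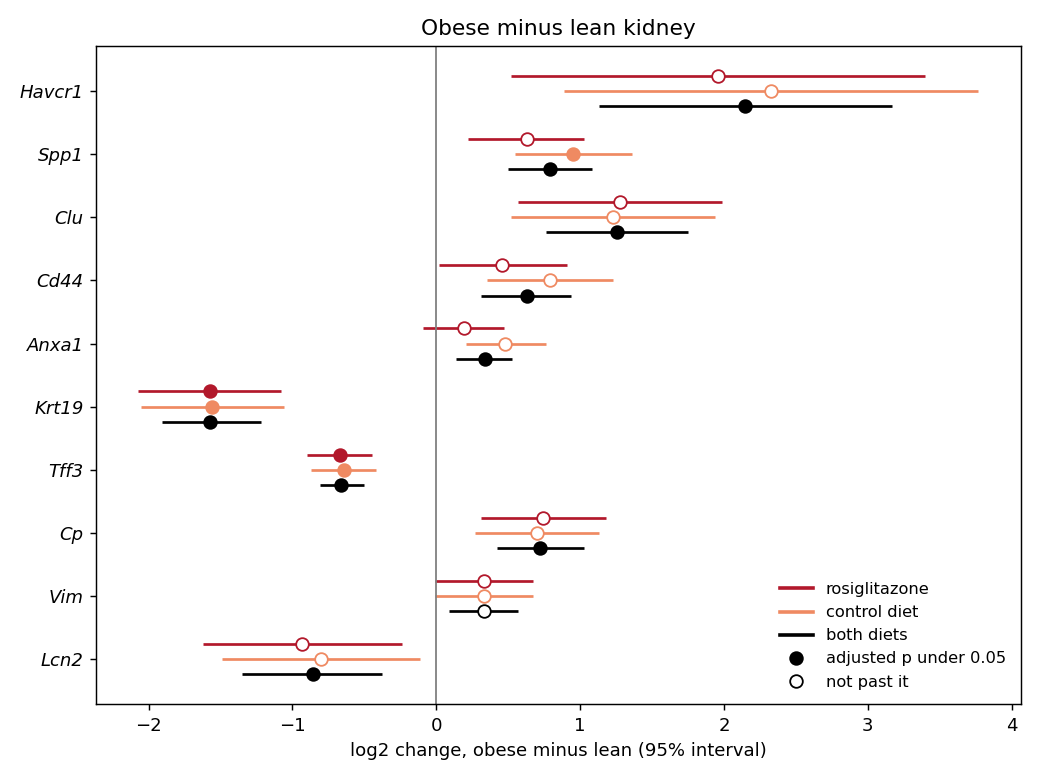
log2 change of each gene, obese minus lean, on rosiglitazone, on control diet and over both diets, with 95% intervals. Filled points passed an adjusted p of 0.05. Krt19 lies near -1.57 and Tff3 near -0.66 in all 3 comparisons, while Havcr1 has the widest intervals.

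Upstream sequence is shown for 3 members whose signals moved apart between the body types: Havcr1 and Spp1, which were higher in obese rats and ranked the 6 obese rats alike, and Tff3, which was lower. The RefSeq table of build GRCr8 held a start site for 8 of the 10 genes, all but Clu and Krt19. The 250 bases before it are printed 5′ to 3′ on the gene's strand, with motif matches in capitals. The windows are chr10:31629528-31629777 on the plus strand for Havcr1, chr14:5619805-5620054 on the minus strand for Spp1 and chr20:9199334-9199583 on the minus strand for Tff3. The table's start sites of Havcr1 and Spp1 lie inside the spans annotated for those genes, 31619914 to 31652955 on chromosome 10 and 5613569 to 5620695 on chromosome 14, so other start sites exist.
Havcr1: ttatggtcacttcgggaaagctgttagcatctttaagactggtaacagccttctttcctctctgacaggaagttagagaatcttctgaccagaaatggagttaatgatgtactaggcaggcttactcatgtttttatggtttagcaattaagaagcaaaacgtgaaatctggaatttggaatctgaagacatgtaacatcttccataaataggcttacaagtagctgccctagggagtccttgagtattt
Spp1: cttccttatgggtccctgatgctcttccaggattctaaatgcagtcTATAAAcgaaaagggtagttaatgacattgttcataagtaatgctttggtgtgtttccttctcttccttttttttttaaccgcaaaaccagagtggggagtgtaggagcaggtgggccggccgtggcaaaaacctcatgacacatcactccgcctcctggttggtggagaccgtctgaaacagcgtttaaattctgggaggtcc
Tff3: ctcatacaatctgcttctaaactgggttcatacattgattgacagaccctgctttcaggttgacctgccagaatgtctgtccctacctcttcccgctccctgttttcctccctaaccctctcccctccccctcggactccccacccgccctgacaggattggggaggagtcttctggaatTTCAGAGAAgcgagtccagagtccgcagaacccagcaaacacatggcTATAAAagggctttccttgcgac
Both strands were searched for TGANTCA (AP-1 type), TTCNNNGAA (STAT type) and TATAAA (the letters of a core promoter box). They were also searched for DR1, the direct repeat read by PPAR and RXR. Havcr1 held none of these letters, Spp1 held 1 TATAAA match, and Tff3 held 1 STAT match and 1 TATAAA match. Among the 8 members, 5 held TATAAA (62.5%), namely Spp1, Anxa1, Tff3, Cp and Vim, against 13.1% of 27457 promoters of the same length. Matches were counted anywhere in the 250 bases, so these shares do not count core promoter boxes. The TATAAA matches of Tff3 and Cp lie closest to the start site, and that of Spp1 lies farthest from it. The STAT type was in 1 of 8 members and in 7.52% of promoters, while the AP-1 type (6.36% of promoters) and DR1 (0.0546%) were in none of the 8. These are matches of letters, not known sites.

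Havcr1 encodes kidney injury molecule, a receptor on the apical surface of injured proximal tubule cells that takes up dead cells. On control diet its signals were 2592, 277 and 679 in obese rats 1, 2 and 3, against 145, 214 and 96.6 in lean rats. On rosiglitazone they were 233, 325 and 852 in obese rats, against 36.1, 145 and 133 in lean rats. Every obese rat lay above every lean rat, although obese rats spanned an 11.1-fold range. Lean rats spanned a 5.91-fold range, with 4 of 6 above the dim limit. The mean over both diets was 826 ± 900 in obese rats and 128 ± 59.0 in lean rats (SD, n = 6 each). The log2 change was 2.15 (SE 0.48, adjusted p = 0.0133), the largest of the panel. On single diets it was 2.33 (adjusted p = 0.095) on control diet and 1.96 (adjusted p = 0.163) on rosiglitazone, neither past the threshold. Without obese control rat 1 or any other single rat, the change over both diets stayed between 1.72 and 2.51 and past the threshold. The lean rosiglitazone mean was dim, so this gene's log2 change there depends on the offset of 16 added before the log.

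Cd44 encodes the hyaluronan receptor that also binds osteopontin and is taken on by regenerating tubules. Its brighter probe set gave 458, 262 and 285 in obese rats on control diet, against 187, 204 and 155 in lean rats. On rosiglitazone it gave 241, 241 and 252 in obese rats, against 197, 169.5 and 154 in lean rats. The body types did not overlap, and obese control rat 1 stood above the other 5 obese rats, which lay close together. The log2 change over both diets was 0.63 (SE 0.15, adjusted p = 0.0174), with 0.79 on control diet and 0.46 on rosiglitazone, neither called (adjusted p = 0.0661 and 0.298). On control diet it passed with the spike-in class as a term (0.93, adjusted p = 0.0134). A second Cd44 probe set gave 487, 339.6 and 228 in obese control rats, against 66.9, 195 and 279 in lean control rats. On rosiglitazone that probe set gave 279, 376 and 277 in obese rats, against 67.7, 103 and 29.3 in lean rats. Its groups overlapped on control diet and were apart on rosiglitazone, where all 3 lean rats lay under the dim limit. Obese over lean on rosiglitazone was at least 2.49-fold, from geometric means without an offset and with lean rats set to the dim limit (log2 change 2.08, SE 0.44, adjusted p = 0.0234). That call was lost without any of obese rosiglitazone rats 1, 2 and 3 or lean rosiglitazone rats 1 and 3, with log2 changes of 2.14, 1.94, 2.15, 2.14 and 1.70 and adjusted p of 0.0642 to 0.0949. With the spike-in class as a term it was also not called (2.24, adjusted p = 0.0522). Over both diets this probe set was called (adjusted p = 0.00696), but only 2 of 6 lean rats lay above the dim limit and the lean mean was dim, so its log2 change of 1.55 (SE 0.31) depends on the offset.

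Spp1 encodes osteopontin, a secreted matrix phosphoprotein that recruits macrophages and is made by distal tubules and by injured tubules. Obese control rats had 18108, 10268 and 12739, against 6237, 8369.8 and 6218 in lean control rats. Obese rats on rosiglitazone had 9141, 11788 and 13001, against 8143, 7344 and 6342 in lean rats. The lowest obese rat lay above the highest lean rat, by less on rosiglitazone than on control diet. The mean was 12508 ± 3120 in obese rats and 7109 ± 986 in lean rats (SD, n = 6 each), which is 0.79 higher on the log2 scale (SE 0.13, adjusted p = 0.00254). This call held without each single rat and within the lower spike-in class. On control diet the change was 0.95 (SE 0.19, adjusted p = 0.0182), and it was not called without obese control rat 1 (0.73), obese control rat 3 (0.99), lean control rat 1 (0.88) or lean control rat 3 (0.88), with adjusted p of 0.0528 to 0.0828. On rosiglitazone it was 0.63 (adjusted p = 0.108), or 0.89 with the spike-in class as a term (adjusted p = 0.0223). The difference between the diets, -0.33 (95% interval -0.90 to 0.25), was not called.

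Clu encodes clusterin, a secreted chaperone that rises in many forms of tubular damage. Its signals were 6148, 2490.1 and 3083 in obese control rats, against 1276, 2152 and 1312 in lean control rats. On rosiglitazone they were 2584, 2913 and 5815 in obese rats, against 1493, 1614 and 1239.9 in lean rats. A single rat in each obese group, control 1 and rosiglitazone 3, carried about the same high signal, and the other 4 obese rats lay closer to the highest lean rat, but above it. The log2 change was 1.26 over both diets (SE 0.23, adjusted p = 0.00452), 1.23 on control diet (adjusted p = 0.0723) and 1.28 on rosiglitazone (adjusted p = 0.0607). With the spike-in class as a term the single diets passed too, at 1.43 (adjusted p = 0.0247) and 1.68 (adjusted p = 0.0241). A second Clu probe set was dim on every array, 16.2 to 45.3 in obese and 5.94 to 20.8 in lean rats, and gives no fold.

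Cp encodes ceruloplasmin, the copper-carrying ferroxidase of plasma, which injured tubule cells also make. Its brightest probe set read 1287, 1777 and 1032 in obese control rats, against 867, 907 and 687 in lean control rats. On rosiglitazone it read 1188, 1203 and 1013 in obese rats, against 901, 580.3 and 571 in lean rats. The body types were apart on both diets, with a log2 change of 0.72 over both (SE 0.14, adjusted p = 0.00668). A probe set numbered 1368420 was also higher in obese rats, with 1119.6, 1073 and 776 in obese control rats, against 433, 584 and 507 in lean control rats. On rosiglitazone it had 739, 754 and 567 in obese rats, against 473, 438 and 338 in lean rats. It was apart on each diet but not over both, as obese rosiglitazone rat 3 lay under lean control rat 2. It changed by 0.82 over both diets (SE 0.13, adjusted p = 0.00133) and by 0.93 on control diet (adjusted p = 0.0154), a call lost without obese control rat 1 (0.84), obese control rat 2 (0.87) or lean control rat 1 (0.83), at adjusted p of 0.0656 to 0.0826. On rosiglitazone its change was 0.70 (adjusted p = 0.0579), or 0.86 with the spike-in class as a term (adjusted p = 0.048). The remaining probe set was not called. It had 672, 1083 and 750.1 in obese control rats, against 938, 749.6 and 581 in lean control rats, which overlapped. On rosiglitazone it had 669, 635 and 808 in obese rats, against 590.3, 438 and 495 in lean rats, which did not overlap (log2 change 0.46, adjusted p = 0.274). Over both diets the change was 0.30 (95% interval 0 to 0.60, adjusted p = 0.229).

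Anxa1 encodes annexin A1, a calcium-dependent phospholipid binder that damps inflammation. Obese control rats had 3432, 2986 and 3134, against 1828, 2766 and 2308 in lean control rats. On rosiglitazone the signals were 2723, 2919.6 and 3143 in obese rats, against 2739, 2326 and 2644 in lean rats. The groups were apart on control diet and overlapped on rosiglitazone. The change over both diets was small, 0.34 (SE 0.09, adjusted p = 0.0373), and most single rats decided it. It was not called without any of obese control rats 1, 2 and 3 (0.31, 0.36 and 0.34), lean control rats 1 and 3 (0.26 and 0.34), obese rosiglitazone rats 2 and 3 (0.34 and 0.31) or lean rosiglitazone rats 2 and 3 (0.30 and 0.35), with adjusted p of 0.0546 to 0.0918. It was also not called with the replicate number as a block (adjusted p = 0.0532) or with the spike-in class as a term (0.35, adjusted p = 0.0842).

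Vim encodes vimentin, the intermediate filament of mesenchymal cells, which dedifferentiated tubule cells take on. Its signals were 3128, 2745 and 2068 in obese control rats, against 2061, 1842 and 2344 in lean control rats. Obese rats on rosiglitazone had 2695, 2178 and 2800.0, against 1756, 1977 and 2382 in lean rats. The groups overlapped on both diets. The log2 change of 0.33 over both diets (95% interval 0.09 to 0.57, adjusted p = 0.0925) did not pass, except without obese control rat 3 (0.41, adjusted p = 0.0346).

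Krt19 encodes a keratin of simple epithelia that is kept in collecting ducts and is known to be taken on by injured tubules, yet it was lower in every obese rat. Its signals were 567, 362 and 571 in obese control rats, against 1667, 1713 and 1117 in lean control rats. On rosiglitazone they were 602, 363 and 489 in obese rats, against 1479.6, 1769.9 and 1154 in lean rats. The highest obese rat did not reach the lowest lean rat, and rosiglitazone and control rats of a body type overlapped. The mean was 492 ± 107 in obese and 1483 ± 287 in lean rats (SD, n = 6 each), a log2 change of -1.57 (SE 0.16, adjusted p = 6.79e-05). The change was -1.56 on control diet (adjusted p = 0.00277) and -1.57 on rosiglitazone (adjusted p = 0.00307). Over both diets the call held without each single rat, with changes of -1.66 to -1.46, and within the lower spike-in class (-1.26, adjusted p = 0.0462).

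Tff3 encodes intestinal trefoil factor, a small secreted peptide of mucosal repair that the rat kidney makes in quantity. Obese control rats had 17042, 13984 and 16062, against 25681, 25195 and 22418 in lean control rats. Obese rats on rosiglitazone had 16857, 14298 and 17979.8, against 28138, 26936 and 23129 in lean rats. Here too all obese rats lay under all lean rats. The mean was 16037 ± 1590 in obese and 25249.5 ± 2190 in lean rats (SD, n = 6 each), a log2 change of -0.66 (SE 0.07, adjusted p = 0.000134). The change was -0.64 on control diet (adjusted p = 0.00615) and -0.67 on rosiglitazone (adjusted p = 0.00455). The probe set is among the brightest of the array, and with quantile normalization the change over both diets was -0.28 (adjusted p = 0.00712) and that on rosiglitazone -0.21 (adjusted p = 0.212).

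Lcn2 encodes neutrophil gelatinase-associated lipocalin, an iron-siderophore binder that distal tubules release after acute injury. Its signals were 115, 113 and 105 in obese control rats, against 180.0, 195 and 244 in lean control rats. On rosiglitazone they were 108, 53.0 and 85.3 in obese rats, against 261, 184 and 92.2 in lean rats. All 6 obese rats and lean rosiglitazone rat 3 lay under the dim limit. On control diet lean over obese was at least 1.65-fold, from geometric means without an offset and with the obese rats set to the dim limit. Over both diets that ratio was 1.48, but it is no lower bound, as lean rosiglitazone rat 3 was itself under the limit. The log2 change over both diets, obese minus lean, was -0.86 (SE 0.23, adjusted p = 0.0318). The call was lost without any of 10 of the 12 rats, all but obese rosiglitazone rat 1 and lean rosiglitazone rat 3, at adjusted p of 0.0502 to 0.0761 and log2 changes of -0.91 to -0.71. It was also lost with the spike-in class as a term (-0.72, adjusted p = 0.137). Havcr1 and Lcn2, both read in urine as early signs of tubular injury, thus went opposite ways, Lcn2 being dim in obese rats.

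Obese rats differed among themselves. Obese control rat 1 had the highest of the 6 obese signals for 7 of the 10 genes (Havcr1, Spp1, Clu, Cd44, Anxa1, Vim and Lcn2). For Lcn2 all 6 obese signals lay under the dim limit, so its rank says little. Obese rosiglitazone rat 3 came second for Havcr1, Spp1, Clu, Anxa1 and Vim. Obese rosiglitazone rat 1 was the lowest for Havcr1, Spp1, Cd44 and Anxa1. Among the 6 obese rats, Havcr1 went with Spp1 at Pearson r = 0.97 and Spearman rho = 1.0 (exact permutation p = 0.00139 and 0.00278, two-sided), and r was 0.90 over the 4 rats left without the 2 farthest from the median of Havcr1. Havcr1 went with Clu at r = 0.90 and rho = 0.94 (exact permutation p = 0.00278 and 0.0167), with r = 0.82 over 4 rats. Havcr1 went with Anxa1 at r = 0.94 and rho = 0.94 (exact permutation p = 0.00417 and 0.0167), with r = 0.92 over 4 rats. Havcr1 went with Cd44 at r = 0.87 and rho = 0.71 (exact permutation p = 0.0319 and 0.136), but r was 0.33 over 4 rats, so that relation rests on the 2 rats left out. Among the 6 lean rats, r of Havcr1 was -0.14 with Spp1, 0.35 with Clu, -0.22 with Anxa1 and -0.04 with Cd44. In that order, rho was 0.26, 0.31, 0.03 and 0.37, and r over 4 rats was 0.46, 0.29, -0.26 and 0.65. Only 4 of the 6 lean rats lay above the dim limit for Havcr1, which limits these lean values. The difference between body types was not tested. In all, 90 pairs were computed, 45 within each body type, and 14 had an unadjusted exact permutation p under 0.05. None passed after Benjamini-Hochberg adjustment over the 90, the smallest adjusted p of r being 0.125. The obese rats are of both diets, and obese control rat 1 was the only obese array in the higher spike-in class, so its part in these relations was not tested beyond the values over 4 rats.

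**Figure D3:**
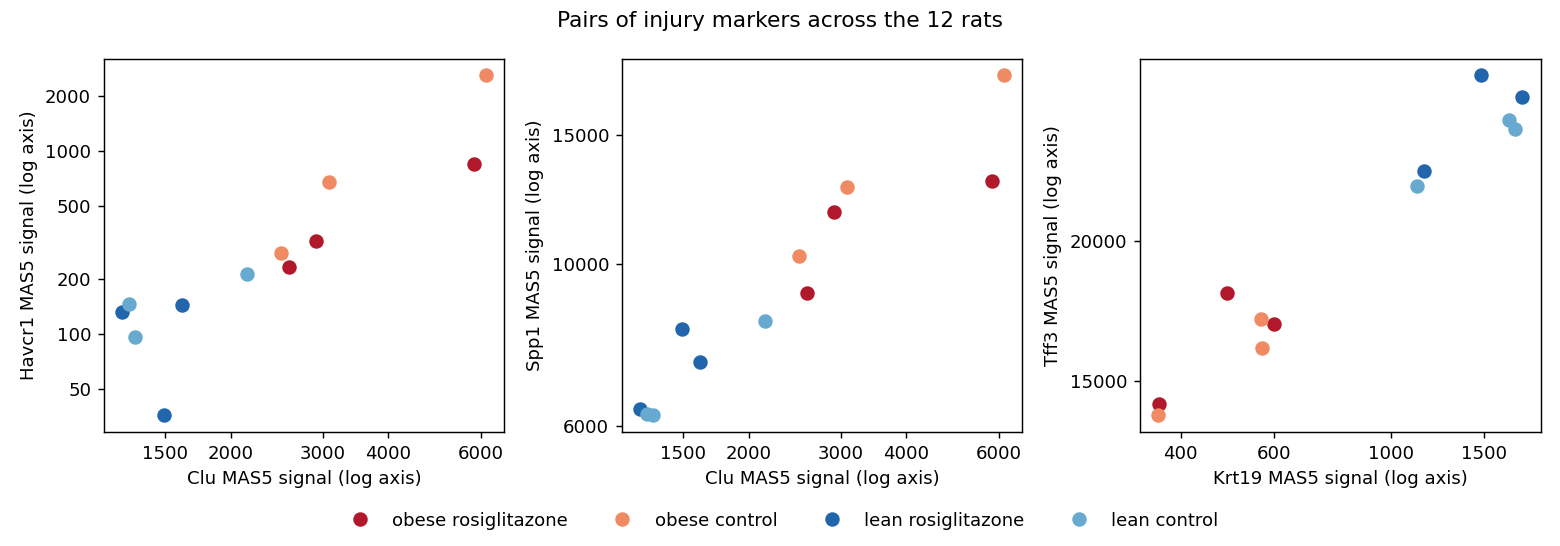
MAS5 signals (log axes) of Havcr1 and Spp1 against Clu, and of Tff3 against Krt19, 1 point per rat, coloured by group. Obese control rat 1 and obese rosiglitazone rat 3 stand at the upper right of the Clu panels with Clu signals of 6148 and 5815, and in the Krt19 panel the 6 obese rats form a separate lower cloud.

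Over the 12 arrays, the genes whose log2 signals were most like those of Havcr1 were Zpr1 and Clu (r = 0.907 each), Anxa7 (0.905), Ankrd13c (0.903) and Mrpl23 (0.895). Those most like Spp1 were Rab11a (0.954), Cr1l (0.953), Clu (0.952), Grb2 (0.948) and Rhoc (0.946). For Krt19 they were RT1-CE16 and Cisd3 (0.981 each), Tff3 (0.975), Msrb1 (0.972) and Prlr (0.970). These r values are a measure of likeness over arrays that fall apart by body type, and carry no test. Clu was thus near both Havcr1 and Spp1, and Tff3 near Krt19.

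Rosiglitazone moved none of the 10 genes past the threshold in either body type. In obese rats 9 of the 10 log2 changes, rosiglitazone minus control, were negative, with a median of -0.18 against -0.006 for all probe sets. Without obese control rat 1 only 6 of 10 were negative, with a median of -0.05, and without obese rosiglitazone rat 2 also 6, with a median of -0.15. In lean rats 7 of 10 were negative, with a median of -0.05 against 0.013. In obese rats 0.0226% of all probe sets were called (7 probe sets), in lean rats 0.00322% (1 probe set) and over both body types 0.0226% (7 probe sets). The smallest adjusted p among the 14 probe sets was 0.777, for Cp probe set 1368420 over both body types.

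The widest drug interval was that of Havcr1, whose mean was 469.9 ± 334 in obese rats on rosiglitazone and 1183 ± 1240 in obese rats on control diet (SD, n = 3 each). Its log2 change was -0.95 (95% interval -2.39 to 0.49), which holds both falls and rises. It was -0.11 without obese control rat 1, and -1.68 to -0.11 over the single rats left out. Spp1 changed by -0.25 in obese rats (95% interval -0.66 to 0.15) and Clu by -0.04 (-0.74 to 0.67). The tightest intervals were those of Tff3, 0.06 in obese rats (-0.17 to 0.28) and 0.09 in lean rats (-0.13 to 0.32). In 1 of the 10 genes, Cd44, the obese groups did not overlap by diet, with 241 to 252 on rosiglitazone and 262 to 458 on control diet. Such separations were found in 10.9% of all probe sets in obese rats, near the share of the panel, and in 8.39% in lean rats, where none of the 10 genes showed one. The Cd44 log2 change was -0.39 (-0.83 to 0.06), and -0.15 without obese control rat 1. The Cp probe set 1368420 also did not overlap in obese rats, with 739, 754 and 567 on rosiglitazone, against 1119.6, 1073 and 776 on control diet (log2 change -0.51, 95% interval -0.89 to -0.13, adjusted p = 0.948). The difference in drug effect between obese and lean rats was called for none of the 10 genes and for 0% of all probe sets (0 calls with limma, 1342 probe sets at an unadjusted p under 0.05).

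**Figure D4:**
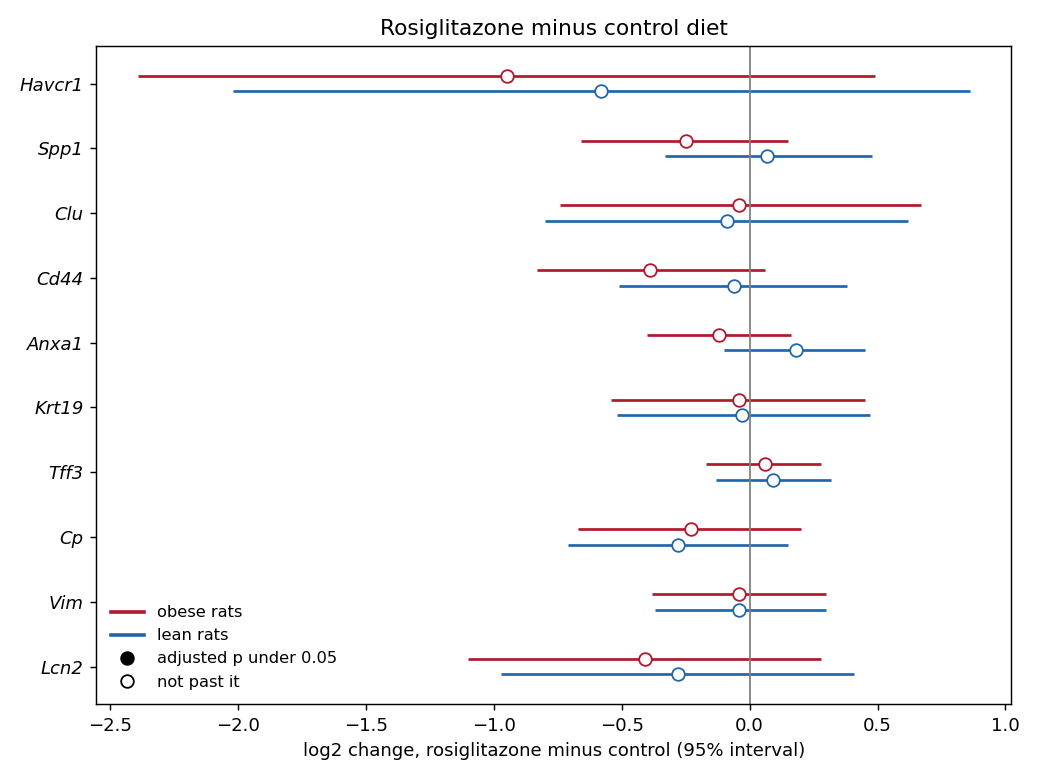
log2 change of each gene, rosiglitazone minus control, in obese and in lean rats, with 95% intervals. No point is filled, since none passed, and Havcr1 has the widest interval while Tff3 lies at 0.06 in obese and 0.09 in lean rats.

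A wider list of 51 injury and repair genes, also chosen with earlier results known, was read in the same way. Of them, 47 were measured under the listed symbols. Over both diets 10 were higher and 1 was lower in obese rats, with a median log2 change of 0.22. Of all probe sets, 4.28% were called higher and 3.87% lower. Ccn1, a matrix protein gene switched on by stress, averaged 378 ± 165 in obese and 95.7 ± 14.6 in lean rats (SD, n = 6 each), and its change of 1.73 on the log2 scale had an adjusted p of 3.17e-05 (SE 0.16). All 6 lean rats lay under the dim limit for Ccn1, at 81.4 to 122.8, so the size of its log2 change depends on the offset. Prom1, a membrane protein of tubular progenitor-like cells, was the gene that fell, with 3673 ± 422 in obese and 5367 ± 879 in lean rats (-0.54, SE 0.06, adjusted p = 0.000184). Both had obese and lean rats fully apart.

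Other genes of that list passed with higher values in obese rats. Icam1, an adhesion molecule for leukocytes, had 624 ± 101 in obese and 262 ± 115 in lean rats (1.32, adjusted p = 0.00317). Timp1, an inhibitor of matrix proteases, had 325 ± 35.2 in obese and 149 ± 71.2 in lean rats (1.22, adjusted p = 0.0161). For Timp1, lean rosiglitazone rats 2 and 3 lay under the dim limit, at 119.7 and 27.0. Cst3, which encodes cystatin C, rose by 0.72 (adjusted p = 0.00392), Lgals3, which encodes galectin 3, by 0.64 (adjusted p = 0.0138), Ccn2, the connective tissue growth factor, by 0.42 (adjusted p = 0.0126, with 0 on control diet and 0.84 on rosiglitazone) and Krt18, the keratin of simple epithelia, by 0.37 (adjusted p = 0.0078). Krt18 was thus higher and Krt19 lower, while the epithelial keratin genes Krt8, Krt7 and Krt20 (0.18, 0.11 and 0.40) did not pass, nor did the adhesion gene Vcam1 (0.32) or the protease inhibitor gene A2m (0.51). Tgfb1, Itgb6 and Gpnmb completed the 10, at 0.55, 0.51 and 1.07, and each lost its call without some single rats. Their calls were lost in 7, 11 and 16 of 21 alternative settings, in that order. The Gpnmb call held without lean control rat 2 and was lost without any other single rat. Leaving out 1 rat at a time left 7 to 10 genes higher and 1 lower, and the lower spike-in class alone gave 4 higher and 1 lower. On control diet 2 were higher and 1 lower, Ccn1 (2.03, adjusted p = 0.000449), Cst3 (0.78, adjusted p = 0.0432) and Prom1 (-0.60, adjusted p = 0.00286). On rosiglitazone 6 were higher and 1 lower, led by Ccn2 (adjusted p = 0.00438), Ccn1 (1.44, adjusted p = 0.00584), Prom1 (-0.47, adjusted p = 0.0135) and Icam1 (1.62, adjusted p = 0.019). Of all probe sets, 0.966% were higher and 1.27% lower on control diet, and 1.07% and 1.26% on rosiglitazone. No gene of the list was called for rosiglitazone against control in either body type, or for the difference between body types.

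**Figure D5:**
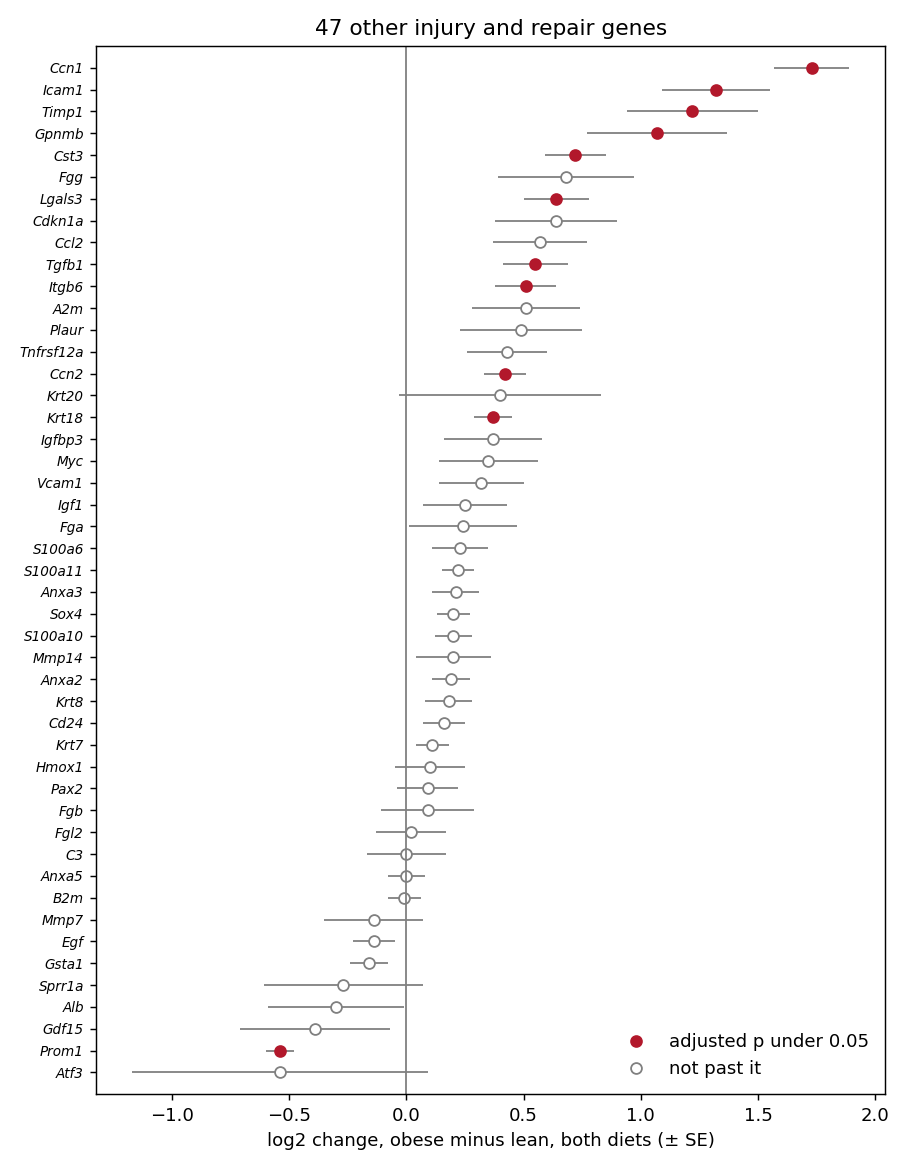
log2 change over both diets, obese minus lean, of the 47 measured genes of the wider list, with SE bars. Filled points passed an adjusted p of 0.05: 10 to the right of 0, led by Ccn1 at 1.73, and Prom1 to the left at -0.54.

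Markers of kidney cell types moved with body type beside the panel. Their counts are over both diets, where 4.28% of all probe sets were called higher and 3.87% lower in obese rats. A single call in a short list says little beside such shares. Of 10 proximal tubule genes, 8 were lower in obese rats and 1, the glucose transporter gene Slc5a2, was higher (2.56, adjusted p = 0.0332). The summed proximal tubule signal was 62386 to 65467 in obese rosiglitazone and 63727 to 71688 in obese control rats, against 84036 to 95389 in lean rosiglitazone and 80973 to 95958 in lean control rats. Such sums weigh bright genes most, and the mean log2 signal over the same 10 genes overlapped between body types. It was 11.69 to 12.12 in obese rosiglitazone and 12.06 to 12.17 in obese control rats. In lean rats it was 12.06 to 12.42 on rosiglitazone and 12.1 to 12.32 on control diet. Of 6 collecting duct genes, where Krt19 is kept, 3 were higher in obese rats and none lower, and their sums were 21696 to 24219 and 19941 to 23196 in obese rats on rosiglitazone and control diet, against 16516 to 21060 and 18258 to 19783 in lean rats. Of 5 thick ascending limb and distal tubule genes, 2 were higher and 1, Umod, was lower.

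Krt19 is also a gene of urothelium and mesothelium, which a piece of kidney can carry. None of 8 urothelial genes was called, and their sums overlapped, at 2527 to 4012 and 2270 to 3508 in obese rats on rosiglitazone and control diet, against 2376 to 3677 and 2270 to 4569 in lean rats. Of 5 measured mesothelial genes, 1 was lower in obese rats (Gpm6a, -0.52), and Lrrn4 was dim on average in obese (106) and lean rats (122). The mesothelial sums overlapped, at 4366 to 4827 and 4088 to 4902 in obese rats, against 4295 to 4975 and 4483 to 5429 in lean rats.

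Leukocytes and stromal cells also express Cd44, Vim, Spp1 and Anxa1. Of 11 macrophage and leukocyte genes, 1 was higher in obese rats (Lyz2, 0.46, adjusted p = 0.0395), against 4.28% of all probe sets. Cd163 and Itgam were dim in all groups. The sums of the 11 genes were 5977 to 7361 and 6820 to 10440 in obese rats on rosiglitazone and control diet, against 5378 to 6093 and 4841 to 6458 in lean rats. Their mean log2 signals overlapped on both diets. They were 8.02 to 8.18 and 8.08 to 8.5 in obese rats, against 7.83 to 8.18 and 7.9 to 8.24 in lean rats. None of 7 fibroblast and pericyte genes was called, with Lum dim, and 1 of 5 smooth muscle genes was higher (Acta2, 0.41). No gene of 4 endothelial or 3 podocyte genes was called. Adipocyte genes were lower in obese rats in 4 of 6 cases (Adipoq, Fabp4, Plin1 and Cfd). Lep was dim on average in obese (72.4) and lean rats (82.5), and Cfd was dim on average in obese rats (87.6). The adipocyte sums were 5180 to 6764 and 2439 to 2940 in obese rats on rosiglitazone and control diet, against 8233 to 12038 and 3551 to 6110 in lean rats. The part of these cell types in the panel's changes was not tested.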

How the data were processed

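Kidney RNA of 12 rats was hybridized to Affymetrix Rat Genome 230 2.0 arrays. The authors deposited signal intensities made with MAS5, per the submitters' processing notes, whose version and scaling target are not stated there. The intensities were taken as deposited, with 57 control probe sets left out and 31042 tested. From them log2(signal + 16) was computed and fitted with limma 3.58.1 in R 4.3.3 (4 group means, lmFit, eBayes with trend and robust settings, 8 residual degrees of freedom). Adjusted p-values are Benjamini-Hochberg over all 31042 probe sets in each of 7 comparisons. Fold changes on this scale understate the change of dim genes. A gene was read by its probe set of highest mean, and all 14 member probe sets were named. Nearest genes were the 5 of highest Pearson r. Symbols came from the platform annotation (20826 probe sets with 1 symbol, 436 with several, 9780 with none). The members and lists were chosen with earlier results of these data known. The fit was tested on simulated data. Same-numbered rats of different groups did not deviate together (r of -0.076 to 0.046 over 18 pairs), so the numbers were not used to pair rats. Alternatives were a dim-signal filter, offsets of 1 and 64, quantile normalization, median centring, eBayes without trend and robust settings, the replicate block, the spike-in class and each array left out.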

Additional observations from a re-analysis of the deposited data

How the results depend on the processing

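Of 2072 recomputed member values, 1888 kept their direction and side of the threshold, 63 lost and 21 gained a call, 100 uncalled values turned sign and 0 called values reversed. Of the 10 genes, those called on control diet numbered 5 with the dim-signal filter, 5 with the spike-in class as a term, 1 without the trend and robust settings, 0 within the lower and 0 within the higher spike-in class, against 3 as reported. On rosiglitazone they numbered 4 with the spike-in class as a term, 1 without the trend and robust settings and 0 within the lower class, against 2. Over both diets they numbered 3 within the lower class, against 9. These within-class fits hold fewer arrays, and the other causes were not tested. Leaving out 1 rat gave 2 to 4 genes on control diet, 2 to 3 on rosiglitazone, 7 to 9 over both diets and 0 to 0 for the drug and the interaction. With the replicate block 3, 3 and 8 genes were called in these comparisons, and 0 for the drug. Of the wider injury list, 6 genes were higher over both diets without the trend and robust settings, against 10. Over all probe sets, calls on control diet numbered 385 with median centring, 235 without the trend and robust settings, 65 within the lower class, 16 within the higher class and 232 to 762 with 1 rat left out, against 693. On rosiglitazone they numbered 374, 233, 346 (lower class), 461 with the spike-in term and 312 to 824 with 1 rat left out, against 725. Over both diets they numbered 1571 without the trend and robust settings, 717 within the lower class and 1621 to 2473 with 1 rat left out (lowest without obese control rat 2), against 2530. For the drug they lay between 0 and 22 in obese rats (7 as reported), 0 and 6 in lean rats (1) and 0 and 17 over both body types (7), and for the interaction between 0 and 3 (0). Median centring moved the share of calls higher in obese rats over both diets to 47.7%, against 52.5%. Dim signal limits Lcn2, the lean Havcr1 values, the second Clu probe set and the lean values of the second Cd44 probe set. In the wider list it limits the lean values of Ccn1 and Timp1.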
